A study of Arabidopsis thaliana with 9 samples.

Results

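The histone genes of Arabidopsis were followed through RNA sequencing of 9-day-old seedlings, as 41 genes named by identifier out of 33602 in each deposited file. They are 8 genes of histone H4, 8 of H3 (5 of the H3.1 form and 3 of the H3.3 form), 12 of H2A (4 of ordinary H2A, 2 of H2A.X, 3 of H2A.Z and 3 of H2A.W), 10 of H2B and 3 of the linker histone H1. The genes were picked as a family, but with these data in view: the H4 gene HIS4 (AT2G28740) had already been seen among the highest rises of OE2 over tt19-8. All differences of these genes between the groups are therefore given as a description, with no p-value. The study holds 3 groups of 3 libraries, all from whole seedlings on 1/2 MS medium with 2% sucrose. OE1 and OE2 overexpress CsGSTF1, a glutathione S-transferase gene of tea, and tt19-8 is a knock-out of TT19, a glutathione S-transferase of Arabidopsis without which anthocyanin is not stored. The series title asks whether CsGSTF1 rescues the missing anthocyanin of tt19-8. The labels do not give the transgene promoter, the background of the OE lines, or whether libraries of a group came from separate plants, and no wild type group is used here. Spread between libraries may thus be technical.

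Histones are the proteins around which nuclear DNA is wound. H3 pairs with H4 and H2A pairs with H2B to form the nucleosome core, and H1 binds the linker DNA between cores. Most core histone genes are copied in S phase, when new chromatin is assembled, whereas replacement forms are also made outside it: H3.3 replaces H3.1 in transcribed chromatin, H2A.Z marks the beginnings of genes, H2A.X is phosphorylated at DNA breaks, and H2A.W, a plant form, marks heterochromatin. In a seedling, high levels of S phase histone transcripts are usual for meristems and young leaves.

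The family label was checked against the annotation. RefSeq (TAIR10.1) lists all 41 as protein-coding, and its product names contain the word histone for 39 of them. The exceptions, the H1 genes AT1G06760 and AT2G30620, carry a winged-helix product name, which is the fold of the H1 globular domain. All 8 H4 genes encode 1 identical protein from coding sequences that are 78.9 to 98.1% identical, so their transcripts differ while their product does not. Likewise 1 protein is encoded by the 5 H3.1 genes, and 1 of 136 residues by a transcript of each of the 3 H3.3 genes, of which AT4G40030 also has an annotated transcript for 164 residues. Where genes have several annotated transcripts, identities are those of the most alike ones. The 10 H2B genes encode 10 different proteins, 69.6 to 97.3% identical, and the 3 H1 proteins are only 24.9 to 55.7% identical. Transcripts are short, with a median of 842 bases (522 to 1666), and 22 of the 41 genes have a single exon. In 12 genes some 50-base windows of the transcript occur exactly in another gene, so their reads could be split or shared; the share of such windows was highest for AT3G27360 (35.6%, H3.1), AT3G46320 (27.9%, H4) and AT1G07660 (26.8%, H4). HIS4 had none. In 8 genes, among them HTA9, GAMMA-H2AX, HTB9, HTA12 and AT1G06760, an exon overlaps another gene on the opposite strand. The strand setting of the counting is not given in the sources used here, so reads of such pairs may not be told apart.

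Promoters are shown because the histone genes are known for a few short upstream elements and because they include HIS4 and AT3G46320, the genes with the widest differences, and AT3G45930, the near-copy of AT3G46320. Each runs 250 bases up to the annotated start, 5′ to 3′ on the gene's strand (RefSeq, TAIR10.1). Capitals mark the octamer CGCGGATC, the hexamer CCGTCG or an E2F type element (TTTCCCGC, TTTGGCGC, TTTCCCGG or TTTGGCGG), searched on both strands. HIS4 lies at chr2:12330060-12330309 (minus strand), AT3G46320 at chr3:17020429-17020678 (minus), AT3G45930 at chr3:16883066-16883315 (plus), AT5G59690 at chr5:24051224-24051473 (plus) and the H3.1 gene AT1G09200 at chr1:2972335-2972584 (minus).
HIS4: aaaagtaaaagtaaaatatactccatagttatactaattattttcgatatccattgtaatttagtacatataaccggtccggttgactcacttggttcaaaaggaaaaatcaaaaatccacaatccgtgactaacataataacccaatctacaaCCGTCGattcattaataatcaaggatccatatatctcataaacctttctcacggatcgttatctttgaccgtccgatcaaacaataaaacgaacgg
AT3G46320: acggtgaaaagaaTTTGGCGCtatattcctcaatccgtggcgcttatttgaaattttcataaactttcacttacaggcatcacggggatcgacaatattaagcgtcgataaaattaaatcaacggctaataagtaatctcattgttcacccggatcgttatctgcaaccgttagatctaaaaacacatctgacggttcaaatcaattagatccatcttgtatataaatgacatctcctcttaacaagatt
AT3G45930: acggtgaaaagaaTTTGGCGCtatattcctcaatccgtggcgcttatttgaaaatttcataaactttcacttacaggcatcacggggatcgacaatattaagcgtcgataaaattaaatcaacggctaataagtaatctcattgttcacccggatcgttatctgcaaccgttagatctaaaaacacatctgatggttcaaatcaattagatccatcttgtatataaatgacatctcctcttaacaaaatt
AT5G59690: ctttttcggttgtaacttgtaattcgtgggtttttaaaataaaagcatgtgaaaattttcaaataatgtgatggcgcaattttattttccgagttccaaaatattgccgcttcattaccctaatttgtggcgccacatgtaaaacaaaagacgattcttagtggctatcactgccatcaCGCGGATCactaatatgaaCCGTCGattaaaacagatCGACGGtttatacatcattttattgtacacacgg
AT1G09200: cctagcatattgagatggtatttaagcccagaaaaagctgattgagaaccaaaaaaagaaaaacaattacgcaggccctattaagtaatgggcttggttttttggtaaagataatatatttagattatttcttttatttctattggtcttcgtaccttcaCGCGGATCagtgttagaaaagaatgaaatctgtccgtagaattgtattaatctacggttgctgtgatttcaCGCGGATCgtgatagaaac
HIS4 holds 1 hexamer, 96 bases before the start, and no octamer. AT5G59690 holds 1 octamer at 71 bases and hexamers at 52 and 34 bases, and AT1G09200 holds octamers at 90 and 19 bases. The windows of AT3G46320 and AT3G45930 differ at 3 of 250 bases (98.8% identical) and share 1 E2F type element at 237 bases.

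Over windows from 250 bases before to 50 after the start, the octamer was found in 10 of the 41 histone genes (24.4%), against 40 of all 27443 promoters of that length (0.146%). The hexamer was also found in 10 (24.4%, against 4.09% of all promoters), and an E2F type element in 4 (9.76%, against 2.46%). In AT4G40040 the octamer and the hexamer overlap. By type, the octamer was present in 3 of 5 H3.1 genes, 2 of 8 H4, 2 of 4 ordinary H2A, and 1 of 3 in each of H3.3, H2A.W and H1. It was found in 0 of the 10 H2B, 0 of the 3 H2A.Z and 0 of the 2 H2A.X genes, so most histone genes lack these exact letters in this window. A match describes letters only, and its absence is not informative about a factor. Among the histone genes tested, the median log2 difference of OE2 from tt19-8 was 0.31 for the 10 with an octamer and 0.40 for the 26 without.

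**Figure D1:**
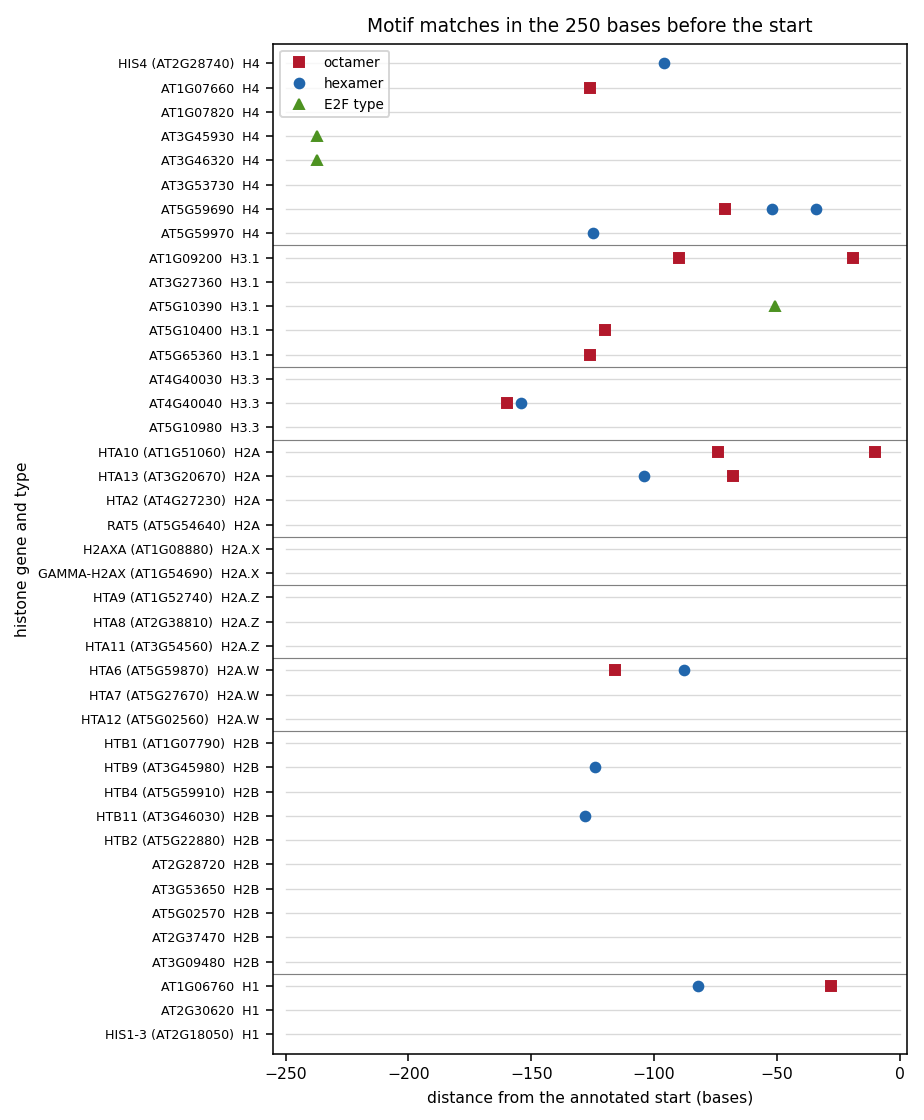
Positions of exact motif matches in the 250 bases before the annotated start (x axis, bases) of each of the 41 histone genes (rows, grouped by type); squares are octamers, circles hexamers and triangles E2F type elements. Octamers lie between 160 and 10 bases before the start and are absent from the H2A.X, H2A.Z and H2B rows; matches in the 50 bases after the start are counted in the text but lie outside the plot.

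Values are FPKM, that is fragments scaled to gene length and library size, so levels can be compared between genes. FPKM over all genes summed to 8.68e+05 to 9.13e+05 per library in OE2. These totals were 1.03e+06 to 1.08e+06 in OE1 and 1.06e+06 to 1.10e+06 in tt19-8. Unscaled comparisons with OE2 carry this difference. Depth is not given in the files. From the steps that whole fragments leave in low values, it was estimated at 48 to 54.5 M fragments in OE1 and 48.4 to 57.2 M in tt19-8, where 3 fragments in a 1 kb gene correspond to 0.0524 to 0.0625 FPKM (counting error only). OE2 values show no such steps, and the depth of OE2 is unknown. TT19 (AT5G17220) was below 1 FPKM in every library: 0, 0.0769 and 0.0712 FPKM in OE1, 0.864, 0.674 and 0.876 in OE2, against 0.113, 0.0399 and 0 in tt19-8. It was listed higher in OE2 than in any other library, and as a gene below the filter it was not tested. Same-numbered OE2 and OE1 libraries are linked (values are given with the comparison of OE2 with OE1), so OE2 is not an independent repeat of OE1. Libraries are of whole seedlings, in which fewer cells of a type and less RNA per cell cannot be told apart.

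A gene was tested where it reached at least 1 FPKM in at least 3 of the 9 libraries, which held for 36 of the 41 histone genes and 18232 genes in all. The 5 left out were AT3G45930 (H4), AT3G27360 (H3.1) and the H2B genes AT3G53650, AT5G02570 and AT3G09480, with no library above 1.48 FPKM. Called means an adjusted p below 0.05 in limma on log2(FPKM + 1), with Benjamini-Hochberg adjustment over all genes tested.

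OE2 differed from tt19-8 unevenly across histone types. Most H4 transcripts, the H2A.Z gene HTA9, the H2B genes HTB2 and AT2G28720 and the H1 gene HIS1-3 were higher in OE2. The most abundant H3 transcripts were lower or level, and none of these was called in the main test. In OE2 against tt19-8, 9 of 36 histone genes were called higher (25%), where 4.5% of all genes tested were, and 0 were called lower, where 14.5% of all genes were. At an unadjusted p below 0.05 the limma counts were 11 higher (8.48% of all genes) and 3 lower (26.9% of all genes). In unscaled FPKM, every OE2 library lay above every tt19-8 library for 11 histone genes (9.35% of all genes) and below for 3 (27.7% of all genes). Because these comparisons were in view when the genes were chosen, nothing is read from these counts. The median log2 difference was 0.39 over the 36 histone genes and -0.18 over all genes. Scaling each library to the median ratio over genes brought that of all genes to -0.02 and of the histone genes to 0.56. It turned 821 genes called higher and 2646 called lower into 1240 higher and 1081 lower, with 10 histone genes called higher (6.8% of all genes). The count of 9 rests on single libraries: it was 2 without OE2 replicate 1, 2 without OE2 replicate 3, 2 without tt19-8 replicate 1, 3 without tt19-8 replicate 2, and 15 without tt19-8 replicate 3. The calls over all genes moved with it, from 3467 in the main test to 530, 780, 1274, 1039 and 5967 in these 5 fits. The 15 were 11 higher (7.83% of all genes) and 4 lower (25.1% of all genes): AT1G09200, AT4G40030, AT4G40040 and HTA12. HIS4 and AT3G46320 were called in each of the 5 fits.

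In OE1 against tt19-8, 0 of 36 histone genes were called, where 0.0165% of all genes tested were (3 genes). At an unadjusted p below 0.05 limma gave 8 histone genes higher and 0 lower, beside 932 and 2526 of all genes. In 2 histone genes, HIS4 and HIS1-3, all OE1 libraries lay above all tt19-8 libraries (4.14% of all genes), and in 0 they lay below (13.3% of all genes). The median log2 difference was 0.24 over the histone genes and -0.11 over all genes, or 0.36 and about 0 after median-ratio scaling. Without tt19-8 replicate 3 the fit called 5: HIS4, AT5G59690, AT5G59970 and HTA9 higher (4.31% of all genes) and the H2B gene HTB4 lower (12.9% of all genes). OE1 and OE2 are compared with the same tt19-8 libraries, so the 2 comparisons are not independent.

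**Figure D2:**
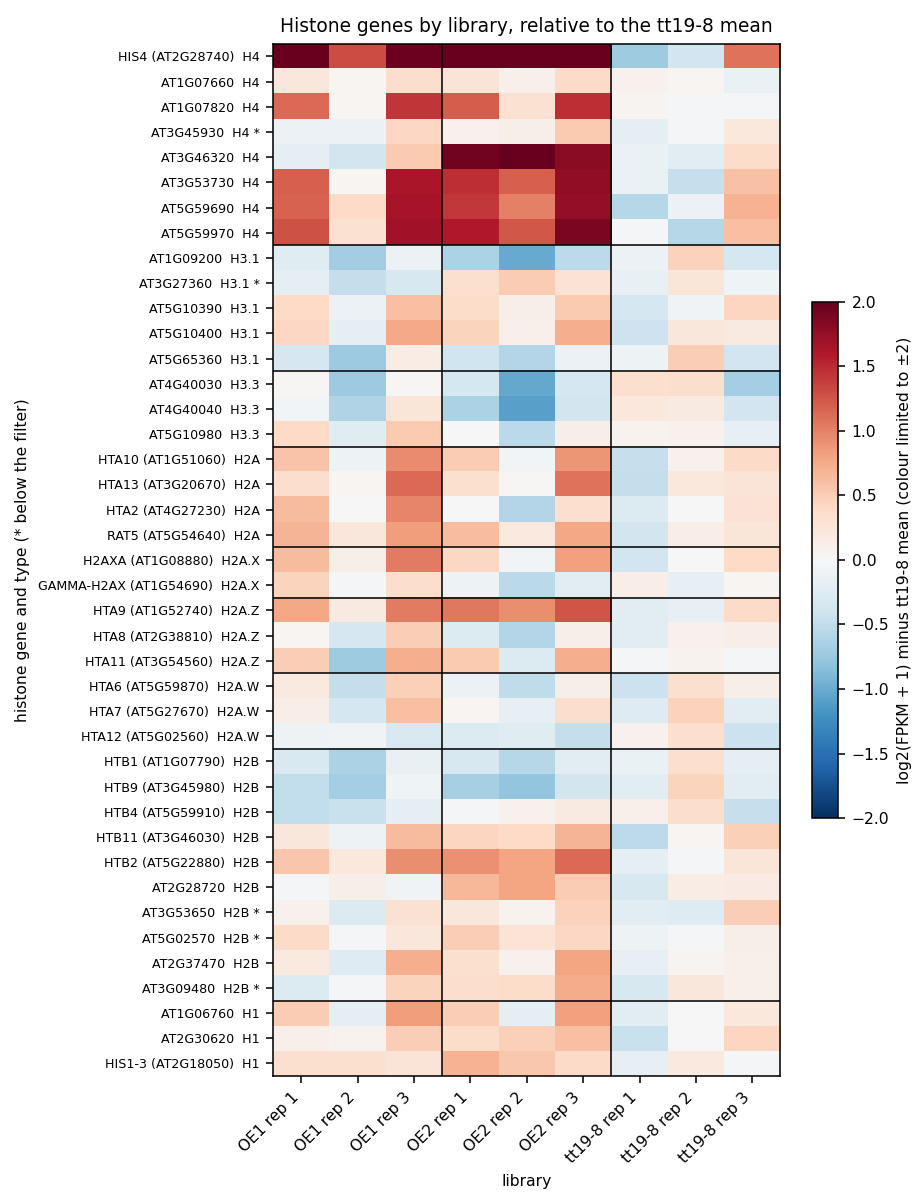
Each of the 41 histone genes (rows, by type) in each of the 9 libraries (columns), as log2(FPKM + 1) minus the mean of the 3 tt19-8 libraries; red is higher and blue lower, with colour limited to 2 in either direction, and a star marks the 5 genes below the filter. Most H4 rows are red in the OE2 columns and in OE1 replicates 1 and 3, while AT1G09200, AT4G40030 and AT4G40040 are blue in OE2; OE1 and OE2 replicates 2 are paler or bluer than replicates 1 and 3 down most rows.

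**Figure D3:**
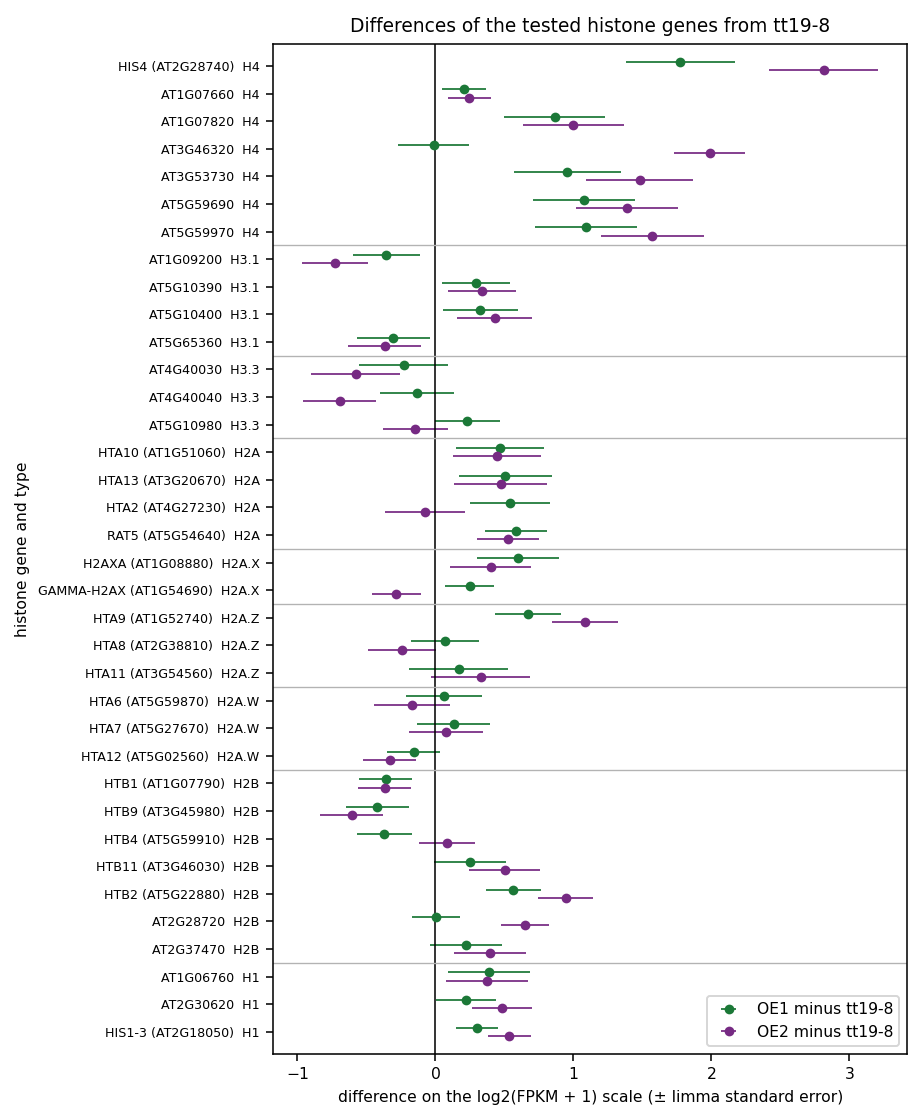
Difference of OE1 (green) and of OE2 (purple) from tt19-8 for the 36 histone genes tested (rows, by type), on the log2(FPKM + 1) scale, with bars of 1 limma standard error. HIS4 stands at 1.77 in OE1 and 2.81 in OE2, and AT3G46320 at -0.01 in OE1 and 1.99 in OE2; outside H4 every point but HTA9 in OE2 (1.08) lies within 1 of zero.

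By median log2 difference from tt19-8, H4 is the core histone that differed most. HIS4, annotated as an H4 gene like the rest, measured 10.5, 5.86 and 9.70 FPKM in OE1, 18.3, 18.4 and 18.6 in OE2, against 0.683, 1.13 and 4.89 in tt19-8. All OE2 libraries lay near 18 FPKM, above every OE1 library, and all OE1 libraries lay above tt19-8, whose replicate 3 was several times its replicates 1 and 2. The log2 difference from tt19-8 was 1.77 ± 0.40 in OE1 and 2.81 ± 0.40 in OE2 (limma standard error). By the estimated depth, HIS4 rested on about 360, 209 and 378 fragments in OE1 and about 25, 39 and 200 in tt19-8. Its share of the summed H4 level was 11.6% ± 2.40 in OE1, 17.2% ± 3.23 in OE2 and 5.20% ± 3.80 in tt19-8 (SD, n = 3).

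AT3G53730, AT5G59690 and AT5G59970 had like patterns. AT3G53730 had 20.9, 8.76 and 28.7 FPKM in OE1, 25.5, 20.9 and 31.5 in OE2, against 7.71, 5.95 and 13.4 in tt19-8. AT5G59690, with the octamer shown above, had 19.2, 10.8 and 26.9 FPKM in OE1, 22.8, 16.9 and 29.1 in OE2, against 4.98, 7.23 and 13.4 in tt19-8, and AT5G59970 had 12.6, 5.93 and 17.0 FPKM in OE1, 15.9, 12.2 and 19.6 in OE2, against 4.47, 2.78 and 7.50 in tt19-8. In each of the 3 genes all OE2 libraries lay above tt19-8, whereas OE1 replicate 2 fell among the tt19-8 values and OE1 replicates 1 and 3 lay within the OE2 range. Log2 differences from tt19-8 for AT3G53730, AT5G59690 and AT5G59970 were 0.96, 1.07 and 1.09 in OE1, and 1.48, 1.39 and 1.57 in OE2. The last 2 share 8.48% and 6.94% of their 50-base windows with each other.

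AT3G46320 had low levels in OE1 and tt19-8 and several FPKM in OE2: 0.437, 0.266 and 1.34 FPKM in OE1, 5.24, 6.64 and 4.70 in OE2, against 0.484, 0.395 and 1.11 in tt19-8. All OE2 libraries lay above all others, and OE1 overlapped tt19-8. The log2 difference was -0.01 ± 0.26 for OE1 from tt19-8, 1.99 ± 0.26 for OE2 from tt19-8 and 2.00 ± 0.26 for OE2 from OE1. The last of these errors ignores the link between same-numbered OE2 and OE1 libraries. AT3G45930, whose coding sequence is 97.4% identical and whose promoter window differs at 3 bases, stayed low in every group, at 0.477, 0.492 and 1.14 FPKM in OE1, 0.709, 0.752 and 1.30 in OE2, against 0.412, 0.584 and 0.868 in tt19-8. With 27.9% of the windows of AT3G46320 and 25.7% of those of AT3G45930 in common, the split of reads between this pair is uncertain. Of the remaining H4 genes, AT1G07820 had 13.8, 5.89 and 17.1 FPKM in OE1, 14.6, 7.33 and 17.7 in OE2, against 5.999, 5.56 and 5.63 in tt19-8, so that OE1 replicate 2 sat with tt19-8 and the other OE1 libraries with OE2. AT1G07660 was nearly level, at 6.41, 5.49 and 7.12 FPKM in OE1, 6.55, 5.80 and 7.31 in OE2, against 5.75, 5.55 and 4.78 in tt19-8. In all, 5 of the 7 H4 genes tested, HIS4 among them, were called higher in OE2, where 4.5% of all genes were. In OE1 0 of the 7 were called, where 0.0165% of all genes were. As HIS4 was in view when the genes were chosen, nothing is read from these counts. AT3G53730, AT5G59690 and AT5G59970 each lost the call when OE2 replicate 1, OE2 replicate 3, tt19-8 replicate 1 or tt19-8 replicate 2 was left out. The median H4 log2 difference was 0.96 in OE1 and 1.48 in OE2, and 1.06 and 1.66 after median-ratio scaling.

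**Figure D4:**
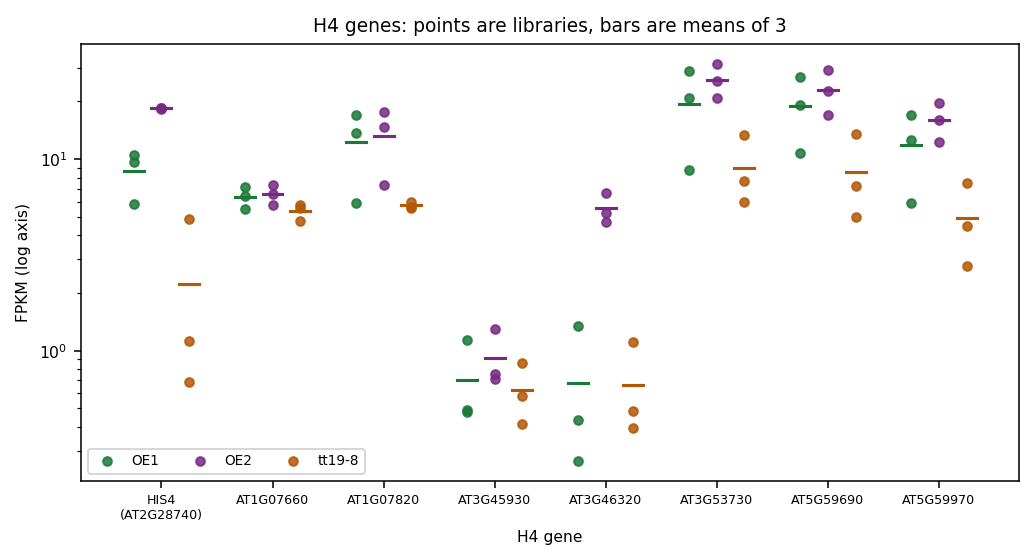
FPKM (log axis) of the 8 H4 genes in OE1 (green), OE2 (purple) and tt19-8 (orange); points are libraries and bars are means of 3. For HIS4 the OE2 points fall together between 18.3 and 18.6 FPKM, AT3G46320 is above 4 FPKM in OE2 only, and AT1G07660 hardly differs between the groups.

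H3.1 is the H3 form laid down with replication. Its most abundant gene, AT1G09200, held 67.0% ± 1.35 of the H3.1 level in OE2 and 75.4% ± 1.65 in tt19-8 (SD, n = 3). AT1G09200 measured 224, 165 and 245 FPKM in OE1, 171, 132 and 185 in OE2, against 247, 368 and 209 in tt19-8. All OE2 libraries lay below tt19-8 in unscaled FPKM, where replicate 2 was highest, and OE1 overlapped it, with log2 differences of -0.36 ± 0.24 in OE1 and -0.73 ± 0.24 in OE2. After median-ratio scaling these were -0.23 and -0.53. Relative to the library totals, OE2 replicate 3 (185 of 9.13e+05 FPKM) lay above tt19-8 replicate 3 (209 of 1.06e+06), so the groups overlapped. AT1G09200 was called lower in OE2 with a filter of 5 FPKM, without OE1 replicate 2 and without tt19-8 replicate 3. AT5G10400, which overlapped between the groups, had 20.6, 13.2 and 26.3 FPKM in OE1, 21.2, 16.3 and 25.9 in OE2, against 11.2, 17.9 and 17.4 in tt19-8. Across the 4 H3.1 genes tested, 0 were called in the main test, and the median log2 difference of -0.01 in OE1 and -0.02 in OE2 turned to 0.11 and 0.16 after median-ratio scaling, a change of sign. AT5G10390 and AT5G65360 had log2 differences in OE2 of 0.34 and -0.37, and AT3G27360 stayed between 0.118 and 1.20 FPKM.

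H3.3 transcripts, from 3 genes with introns, were the most abundant of all types. AT4G40040 had 465, 318 and 569 FPKM in OE1, 308, 227 and 375 in OE2, against 555, 547 and 367 in tt19-8. OE2 overlapped tt19-8 because tt19-8 replicate 3 was low, and each OE2 value was 0.659 to 0.713 times the OE1 value of the same number. AT5G10980 had 279, 179.5 and 306 FPKM in OE1, 209, 145 and 229 in OE2, against 223, 225 and 188 in tt19-8, with log2 differences of 0.23 ± 0.23 in OE1 and -0.15 ± 0.23 in OE2, the second of which changed sign (0.05) after scaling. The third gene, AT4G40030, had log2 differences of -0.23 and -0.58 in OE1 and OE2. None of the 3 was called when all libraries entered without a replicate block; without tt19-8 replicate 3, AT4G40030 and AT4G40040 were called lower in OE2. The H3.3 share of summed H3 hardly differed, at 75.5% ± 1.11 in OE1, 72.8% ± 1.56 in OE2 and 72.3% ± 4.07 in tt19-8.

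Ordinary H2A, the partner of H2B, was led by HTA2. HTA2 measured 199.9, 129 and 255 FPKM in OE1, 129, 85.9 and 163 in OE2, against 106, 128 and 157 in tt19-8. OE1 replicates 1 and 3 were the highest, and all groups overlapped. RAT5, whose mutant resists Agrobacterium transformation, had 54.9, 40.0 and 61.6 FPKM in OE1, 52.4, 38.8 and 58.8 in OE2, against 25.9, 37.5 and 40.1 in tt19-8, with OE1 and OE2 nearly the same and only their replicates 2 within the tt19-8 range. Log2 differences from tt19-8 were 0.58 ± 0.23 for RAT5 in OE1 and 0.53 ± 0.23 in OE2, and RAT5 was called in OE2 after median-ratio scaling alone. HTA10 and HTA13 behaved like RAT5, with 0.47 and 0.51 in OE1 and 0.45 and 0.47 in OE2.

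The H2A.X genes, whose protein is phosphorylated at DNA breaks, overlapped between each OE line and tt19-8. H2AXA had 180.4, 126 and 240.4 FPKM in OE1, 156, 112 and 206 in OE2, against 88.4, 115 and 153 in tt19-8. GAMMA-H2AX had 126, 90.3 and 119 FPKM in OE1, 86.2, 63.9 and 80.5 in OE2, against 102, 82.6 and 95.6 in tt19-8, and was the 1 histone gene with every OE2 library below every OE1 library (14.7% of all genes tested). This is in unscaled FPKM, which also summed lower over all genes in OE2. Its log2 difference of OE2 from OE1 was -0.53, or -0.46 after median-ratio scaling. Relative to the library totals, OE2 replicate 1 (86.2 of 8.97e+05 FPKM) lay above OE1 replicate 2 (90.3 of 1.03e+06), so OE2 and OE1 overlapped.

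Among H2A.Z genes, HTA9 stood apart. HTA9 measured 25.2, 16.4 and 30.6 FPKM in OE1, 30.9, 28.2 and 35.5 in OE2, against 12.1, 12.6 and 19.0 in tt19-8. Every OE2 library lay above tt19-8, and OE1 replicate 2 lay within the tt19-8 range. Log2 differences were 0.67 ± 0.24 in OE1 and 1.08 ± 0.24 in OE2. HTA8 had 7.45, 5.49 and 10.6 FPKM in OE1, 5.81, 4.45 and 7.92 in OE2, against 6.09, 7.68 and 7.93 in tt19-8, with all groups overlapping, and HTA11 had log2 differences of 0.17 and 0.33. H2A.Z made up 4.96% ± 0.37 of the summed H2A level in OE1, 7.12% ± 0.51 in OE2 and 4.87% ± 0.31 in tt19-8 (SD, n = 3); HTA9 is the most abundant of the 3.

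H2A.W, the heterochromatin form, was near level. HTA6, its most abundant gene, had 66.2, 41.4 and 81.1 FPKM in OE1, 53.5, 40.4 and 63.0 in OE2, against 42.7, 72.4 and 63.1 in tt19-8. HTA7 had 28.9, 20.4 and 40.3 FPKM in OE1, 27.0, 23.4 and 33.5 in OE2, against 21.8, 36.4 and 22.5 in tt19-8, and HTA12 had 18.2, 18.5 and 15.5 FPKM in OE1, 16.0, 16.2 and 13.7 in OE2, against 20.7, 24.8 and 14.2 in tt19-8. Log2 differences were 0.13 in OE1 and 0.08 in OE2 for HTA7, and -0.16 in OE1 and -0.33 in OE2 for HTA12. All 3 genes overlapped between OE2 and tt19-8. The median log2 difference in OE2 was -0.17 and turned to 0.02 after scaling.

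The H2B genes split in 2 directions. HTB9, the most abundant over the 9 libraries, had 58.8, 51.5 and 78.5 FPKM in OE1, 52.0, 47.8 and 64.6 in OE2, against 70.9, 114 and 71.3 in tt19-8, and HTB1 had 27.7, 22.0 and 31.2 FPKM in OE1, 27.6, 23.0 and 29.7 in OE2, against 31.3, 43.9 and 30.1 in tt19-8. In both genes every OE2 library lay below every tt19-8 library in unscaled FPKM, and tt19-8 replicate 2 was the highest of all. Relative to the library totals, both genes overlapped between OE2 and tt19-8. OE2 replicate 3, with 64.6 and 29.7 of 9.13e+05 FPKM, lay above tt19-8 replicate 3, with 71.3 and 30.1 of 1.06e+06. Neither was called. Log2 differences in OE2 were -0.61 for HTB9 and -0.37 for HTB1, and -0.42 and -0.18 after median-ratio scaling. HTB2, in contrast, had 22.7, 17.8 and 29.8 FPKM in OE1, 29.4, 27.1 and 34.3 in OE2, against 13.1, 14.7 and 18.2 in tt19-8, with OE2 above tt19-8 throughout and log2 differences of 0.56 ± 0.20 in OE1 and 0.94 ± 0.20 in OE2. AT2G28720 had 6.99, 7.85 and 6.74 FPKM in OE1, 11.9, 13.1 and 10.5 in OE2, against 5.53, 8.06 and 8.13 in tt19-8, so OE1 was level with tt19-8 while OE2 lay above both. HTB4 had 42.3, 43.5 and 52.9 FPKM in OE1, 58.8, 63.8 and 68.0 in OE2, against 64.5, 76.1 and 43.4 in tt19-8: each OE2 library was above each OE1 library and within the tt19-8 range. HTB11 and AT2G37470 had log2 differences of 0.50 and 0.40 in OE2. The 3 H2B genes below the filter stayed below 1.5 FPKM.

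H1 binds linker DNA, and HIS1-3 is its drought-inducible form. HIS1-3 had 8.78, 8.78 and 8.30 FPKM in OE1, 11.6, 10.3 and 9.14 in OE2, against 5.99, 7.98 and 6.58 in tt19-8. The 3 groups did not overlap at any point, in the order OE2, OE1, tt19-8 from high to low, though the gaps between libraries were under 1 FPKM; the log2 differences were 0.30 ± 0.16 in OE1 and 0.54 ± 0.16 in OE2. AT1G06760, the most abundant H1 gene, had 128, 78.4 and 161 FPKM in OE1, 126, 78.8 and 158 in OE2, against 77.4, 89.4 and 104 in tt19-8, with all groups overlapping. AT2G30620 had log2 differences of 0.22 in OE1 and 0.48 in OE2.

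Summed by type, H4 transcripts reached 78.9 ± 33.1 FPKM in OE1, 109 ± 20.3 in OE2 and 37.1 ± 12.6 in tt19-8 (SD over 3 libraries, here and below). The OE2 sums of 109.7, 89.0 and 129.7 FPKM all exceeded the tt19-8 sums of 30.5, 29.2 and 51.6 FPKM, while OE1 replicate 2, at 43.5 FPKM, fell within them. H3.1 summed to 293 ± 66.3 FPKM in OE1, 243 ± 41.7 in OE2 and 364 ± 105 in tt19-8, with OE2 below tt19-8 in every library. These sums are unscaled, and FPKM summed over all genes were also lower in OE2 than in tt19-8. Relative to the library totals the H3.1 separation did not hold. OE2 replicate 3, with 281 of 9.13e+05 FPKM, lay above tt19-8 replicate 3, with 285 of 1.06e+06. H3.3 summed to 911 ± 245, 658 ± 155 and 949 ± 214 FPKM in OE1, OE2 and tt19-8, and overlapped. The ratio of summed H4 to summed H3 transcripts was also taken, which is no measure of their pairing in the nucleosome. Most of summed H3 is H3.3, and summed H4 includes HIS4 and AT3G46320. Summed H4, as a percentage of summed H3, was 6.56, 5.05 and 7.43% in OE1, 11.5, 13.0 and 12.1% in OE2, and 2.18, 1.87 and 5.23% in tt19-8. OE2 did not overlap either group, and OE1 overlapped tt19-8 through tt19-8 replicate 3. The other sums in OE1, OE2 and tt19-8 were 812 ± 233, 671 ± 168 and 596 ± 97.8 FPKM for all H2A, 206 ± 40.3, 234 ± 24.2 and 238 ± 45.6 FPKM for H2B, and 147 ± 43.9, 149.9 ± 40.2 and 110.4 ± 17.9 FPKM for H1. All 41 genes together summed to 2447 ± 656, 2066 ± 445 and 2294 ± 276 FPKM, which did not differ beyond the spread. Their share of the FPKM of all genes was 0.239, 0.169 and 0.282% in OE1. It was 0.236, 0.184 and 0.272% in OE2, against 0.208, 0.237 and 0.195% in tt19-8, with all groups overlapping.

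The spread between libraries of a group was partly shared across the histone genes. In OE1, replicate 2 had the lowest value of its group for 32 of the 36 histone genes (47.3% of all genes) and replicate 3 the highest for 31 (43.8% of all genes). OE2 gave the same picture, with 29 lowest in replicate 2 (47.6% of all genes) and 30 highest in replicate 3 (43.8% of all genes). In tt19-8, replicate 1 was lowest for 22 (36.4% of all genes) and replicate 3 highest for 19 (30.0% of all genes), while replicate 3 was also lowest for 9 (47.2% of all genes). The errors above carry this spread.

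OE2 against OE1 must be read with the link between their libraries. Same-numbered OE2 and OE1 libraries put their replicates in the same order for 31 of 36 histone genes (88.2% of all genes), whereas OE1 and tt19-8 did so for 5 (14.2% of all genes). The 3 same-numbered ratios of OE2 to OE1 lay within 1.1 times of each other for 16 histone genes, and for 0 when the numbers were shifted by 1. The median spread of the 3 ratios was 1.17 times as paired and 2.36 times when shifted. Neither these spreads nor the counts of 16 and 0 were computed over all genes. The lowest ratio among histone genes was 0.641, in HTA2, and among all genes tested 0.601, while the highest among histone genes was 24.9, in AT3G46320. HIS4 and AT3G46320 were exceptions, with ratios spread more widely as paired than when shifted. Their ratios were 1.74, 3.15 and 1.92 for HIS4, and 12.0, 24.9 and 3.51 for AT3G46320. The cause of the link was not tested.

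With library numbers ignored, 1 of 36 histone genes, AT3G46320, was called between OE2 and OE1, where 1.43% of all genes were. Every OE2 library lay above every OE1 library for 5 histone genes (7.04% of all genes): HIS4, AT3G46320, HTB4, AT2G28720 and HIS1-3. The median log2 difference was 0.02 over the histone genes and -0.07 over all genes. With the library number as a replicate block in a fit of these 2 groups, 16 histone genes were called, 5 higher and 11 lower, where 67.8% of all genes were called (12% higher, 55.7% lower). The 5 called higher were HIS4, AT3G46320, HTB4, HTB2 and AT2G28720. The 11 included the 3 H3.3 genes, AT1G09200, HTA2, both H2A.X genes and HTB9.

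**Figure D5:**
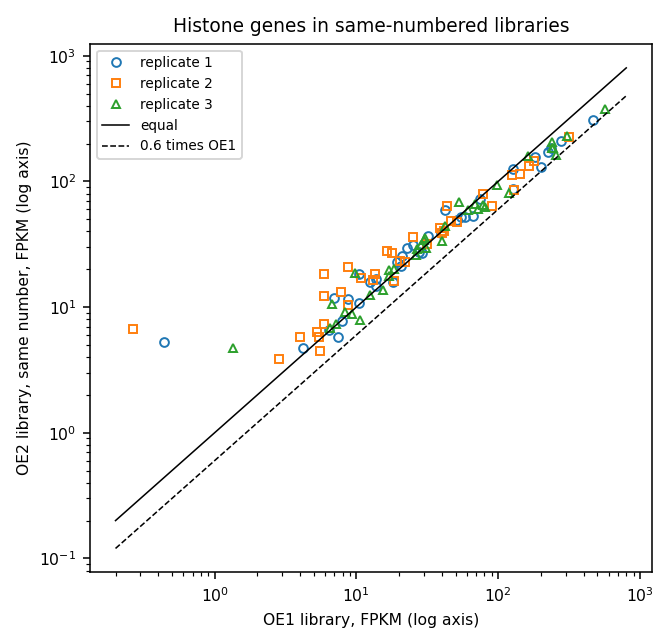
FPKM of the 36 histone genes tested in each OE2 library (y) against the OE1 library of the same number (x), both on log axes; symbols show the replicate number, the solid line equality and the dashed line 0.6 times OE1. Points hug the space between the lines or lie above it, none falls below the dashed line (lowest ratio 0.641), and the 2 points farthest above are AT3G46320 in replicates 2 and 1, with ratios of 24.9 and 12.0.

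Transcript length moved with the difference over all genes. In OE2 against tt19-8 the median log2 difference was 0.22 for transcripts under 500 bases, 0.18 for 500 to under 1000 bases, -0.13 for 1000 to 2000 bases and -0.34 for longer ones. In OE1 these medians were 0.16, 0.15, -0.06 and -0.21. Of the 36 histone genes tested, 26 fall in the class from 500 and 10 in that from 1000 bases, with medians of 0.38 and 0.39 in OE2. Genes with 1 exon and 500 to under 1000 bases, 601 in all, had a median of 0.30 in OE2 with 16.6% called higher; the 13 histone genes among them had a median of 0.50. The part of length in the histone differences was not tested.

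Some histone genes are neighbours. AT2G28720 (H2B) ends 1536 bases from the end of HIS4 on chromosome 2, on the opposite strand, and both were called higher in OE2; AT2G28725 between them and AT2G28750 beyond HIS4 were listed at 0 in all libraries. AT1G07790 (HTB1) and AT1G07820 (H4) lie 7298 bases apart and had log2 differences of -0.37 and 1.00 in OE2. The H3.3 genes AT4G40030 and AT4G40040 lie 42 bases apart, at -0.58 and -0.70, and the H3.1 genes AT5G10390 and AT5G10400 lie 577 bases apart, at 0.34 and 0.43.

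Other genes of the cell cycle and of histone handling were mostly not called in OE2 against tt19-8. Their counts stand beside 4.5% of all genes called higher and 14.5% called lower, or 6.8% and 5.93% after median-ratio scaling. Of 20 DNA replication genes tested (of 22 listed), 0 were called higher and 5 lower in OE2 against tt19-8: MCM3, MCM5 and MCM7 of the replicative helicase, ORC2 of the origin complex and ICU2, a DNA polymerase alpha subunit. MCM3 had 28.1, 30.8 and 32.5 FPKM in OE1, 19.8, 21.1 and 22.0 in OE2, against 29.0, 37.5 and 38.0 in tt19-8, and fell by 0.70 ± 0.15 on the log2 scale (adjusted p = 0.0140, limma; 0.00803 to 0.0680 over the alternatives). PCNA1, the polymerase clamp, had 57.7, 43.3 and 70.4 FPKM in OE1, 40.9, 31.8 and 48.9 in OE2, against 37.4, 48.5 and 55.5 in tt19-8, with overlap of all groups and no call. Of 7 E2F and RBR regulators, E2FA and RBR1 were called lower: the S phase activator E2FA fell by 0.59 ± 0.13 (adjusted p = 0.0171, limma; 0.0102 to 0.0845) and the retinoblastoma homologue RBR1 by 0.57 ± 0.15 (adjusted p = 0.0274, limma; 0.00713 to 0.0879). The list medians were -0.24 for replication and -0.38 for E2F and RBR in OE2, beside -0.18 over all genes. After median-ratio scaling they were -0.06 and -0.23, beside -0.02 over all genes, with 3 replication genes and 0 of the E2F and RBR list called lower.

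Of 12 mitosis genes tested (of 13), KN was called higher and CYCA2;3 lower in OE2. KN, a syntaxin of cell plate formation, had 2.61, 1.54 and 3.57 FPKM in OE1, 5.45, 4.24 and 5.11 in OE2, against 1.82, 1.03 and 2.48 in tt19-8, and rose by 1.12 ± 0.25 (adjusted p = 0.0176, limma; 0.00674 to 0.0721). CYCB1;1, a G2 and M phase cyclin, had 4.83, 4.19 and 4.91 FPKM in OE1, 4.57, 3.97 and 4.52 in OE2, against 5.70, 6.96 and 3.61 in tt19-8, with overlap. Of 12 histone chaperones, ASF1A, which hands H3 and H4 to assembly factors, was called higher, by 0.59 ± 0.18 (adjusted p = 0.0482, limma; 0.0133 to 0.157). ASF1A had 7.90, 6.96 and 9.44 FPKM in OE1, 7.60, 6.89 and 8.74 in OE2, against 3.93, 4.59 and 6.04 in tt19-8. Of the 8 other histone genes listed, 1 passed the filter: HTR12, the centromeric H3, had 6.12, 6.90 and 7.999 FPKM in OE1, 4.76, 5.35 and 6.10 in OE2, against 9.13, 9.21 and 9.61 in tt19-8, and fell by 0.69 ± 0.15 (adjusted p = 0.0163, limma; 0.00889 to 0.0781). After scaling, 1 gene of the mitosis list and 1 of the chaperone list were called higher and 0 of either lower. In OE1 against tt19-8 and, with library numbers ignored, in OE2 against OE1, 0 genes of these 5 lists were called. Each of the calls named here with a p-value was lost (adjusted p above 0.05) in at least 1 alternative. The lists were chosen with earlier results of these data known, and genes were named largely by smallest p, so these p-values are descriptive.

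Marker genes of other cell types moved with the groups in part. Meristem markers summed to 51.3 to 66.2 FPKM in OE1, 45.5 to 57.4 in OE2 and 54.1 to 63.2 in tt19-8; WUS, CLV3 and WOX5 were below 1 FPKM in all libraries, and of the 5 tested (of 8), STM was called lower in OE2. Leaf photosynthesis markers summed to 17413 to 24818 FPKM in OE1, 13098 to 17870 in OE2 and 18328 to 19164 in tt19-8, and 1 of the 5 was called higher in OE2. Root hair markers summed to 8.06 to 9.28, 6.95 to 7.59 and 12.4 to 16.8 FPKM in OE1, OE2 and tt19-8, and all 3 were called lower in OE2. Seed markers summed to 2.71 to 69.9, 17.6 to 69.3 and 96.7 to 595 FPKM in OE1, OE2 and tt19-8. Of the 2 pollen markers, the histone gene HTR10 was at 0 in all libraries, while VEX1 was above 1 FPKM in all. Together they summed to 1.91 to 2.27, 1.52 to 1.69 and 1.87 to 4.70 FPKM in OE1, OE2 and tt19-8. The part of cell types in the histone differences was not tested.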

How the data were processed

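The authors deposited 1 table per library with FPKM values for 33602 gene identifiers. Per the submitters' processing notes, HISAT 0.1.6, edgeR and the build TAIR10 were used, without the role of each. Gene lengths, totals behind the FPKM and filters are not given in the sources used here. No further scaling was applied in the main test. Libraries were grouped by title, and the replicate numbers are those of the titles.

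Values were taken as log2(FPKM + 1), so that differences of genes near 1 FPKM are understated. Genes reaching 1 FPKM in 3 or more libraries (18232 in all) entered 1 limma fit (limma 3.58.1, R 4.3.3) of all 9 libraries with a term per group, eBayes trend and robust on; 15370 genes were not tested. P-values were adjusted by Benjamini-Hochberg over all genes tested within each of the 3 comparisons, calls being those below 0.05 whatever their fold, and the fit was tested on simulated data. Median-ratio scaling, as an alternative, divides each library by its median ratio to the geometric means of genes above 0 in all libraries. The other alternatives were a pseudocount of 0.1 or 0.5 FPKM, no filter, a filter of 5 FPKM, a fit of only the 2 groups compared, a replicate block, and leaving out each library. An exact permutation test of 3 against 3 libraries cannot go below p = 0.1 and was not used. Errors are SD over 3 libraries for FPKM and limma standard errors for log2 differences.

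The numbers pair OE2 with OE1 libraries only. Correlations across genes of deviations from the group means were 0.953, 0.959 and 0.957 for same-numbered OE2 and OE1 libraries, and between -0.0586 and 0.0425 for either line with tt19-8. The pairing rests on these values and not on the labels.

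Of the identifiers, 31938 were matched to nuclear genes of TAIR10.1, from which symbols, positions and promoters were taken. Depth was estimated from the lowest values of 8981 genes with a single exon and a single transcript; a fragment number was called whole within 0.1, which held for 58.6 to 65.9% of such values in OE1 and tt19-8 and for 19.2 to 21.7% in OE2. Sequence identity was computed with Biopython 1.88, and tables and plots with Python 3.11.15, pandas 2.3.3, numpy 2.4.6 and matplotlib 3.10.9.

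The histone genes, the 5 other gene lists, the motifs and the tests were all chosen with earlier results of these data known. Genes given with the value in every library are, for each histone type, the one with the highest mean and those with the highest and lowest log2 difference of OE2 from tt19-8, plus HIS4 and HIS1-3. Added after their values were seen are AT3G46320, AT3G45930, AT1G07820, AT5G59690, AT5G59970, AT2G28720, HTB1 and HTB4. Of each other list the genes with the smallest p in that comparison are named, plus PCNA1, CYCB1;1 and E2FA.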

Additional observations from a re-analysis of the deposited data

Results flagged for a closer look

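The H4 gene AT3G46320 was flagged because OE2 and OE1 differ in their difference from tt19-8: the log2 difference of OE2 from OE1 was 2.00 ± 0.26 (limma standard error, 3 libraries each), higher in 3 of 3 OE2 libraries. It measured 5.24, 6.64 and 4.70 FPKM in OE2 and 0.437, 0.266 and 1.34 FPKM in OE1, against 0.484, 0.395 and 1.11 FPKM in tt19-8. The gene was singled out after its values were seen, and the near-copy AT3G45930 may share its reads. OE2 and OE1 libraries of the same number are linked, which the standard error ignores.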

How the results depend on the processing

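The histone genes called in OE2 against tt19-8 numbered 7 to 10 under every alternative that kept all libraries, against 9 in the main test. All were higher except AT1G09200, called lower with a filter of 5 FPKM, and the median log2 difference of the histone genes stayed above 0. Over all genes these alternatives called 447 to 1240 higher and 1081 to 3640 lower, against 821 and 2646 in the main test. Leaving out single libraries moved the histone count between 2 and 15, the histone median between 0.18 and 0.54, and the count over all genes between 530 and 5967. For OE1 against tt19-8 the ranges were 0 to 5 histone genes, a median of 0.10 to 0.44 and 0 to 3128 genes in all, and for OE2 against OE1 they were 1 to 2 histone genes, a median of -0.20 to 0.21 and 49 to 467 genes in all.

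Over all genes, OE1 against tt19-8 gave 3 calls, and 0 with a pseudocount of 0.1 or 0.5 FPKM, with a filter of 5 FPKM or with only the 2 groups in the fit. OE2 against OE1 gave 260, and 146 with a pseudocount of 0.1 FPKM, 535 with no filter, 88 with a filter of 5 FPKM and 398 after median-ratio scaling. Histone genes called in OE2 against OE1 were 2 with no filter and 0 with a filter of 5 FPKM, which removed AT3G46320.

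The replicate block raised calls over all genes in OE1 against tt19-8 to 16 with 3 groups and 15 with 2 groups, with 0 histone genes. For OE2 against OE1 with 2 groups, where the numbers pair the libraries, it gave 12031 genes and 16 histone genes; the cause was not tested. Of the values for single genes, 2356 kept their direction and side of the threshold, 84 lost and 52 gained a call, and 89 changed sign without a call in either. The limits are 3 libraries a group, a depth of OE2 that is unknown, and copies of near-identical genes.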
